A study of Mus musculus with 2 samples.

Results

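The genes described here are 9 genes known from tuft cells, namely Avil, Dclk1, Alox5, Alox5ap, Ptgs1, Trpm5, Plcg2, Rgs13 and Gfi1b. They were found through the gene name that the array files give each probe, and 17 of 41059 gene probes carried one of these names, standing for 9 of 27777 gene names. Dclk1 had 7 probes, Alox5 had 3, and each other gene had 1.

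Tuft cells are rare epithelial cells of the stomach, intestine and airways with a bundle of microvilli on the surface that faces the lumen. They sense luminal compounds through a signalling cascade like that of taste cells, in which G protein-coupled receptors and phospholipase C release calcium and calcium opens the cation channel Trpm5. They also make leukotrienes and prostaglandins from arachidonic acid, and in the stomach they are scattered singly in the glands.

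The RNA came from the pylorus, the outlet of the stomach, of 20 mice with the knock-in allele Lgr5-EGFP-ires-CreERT2, which places green fluorescent protein (GFP) and an inducible Cre under the Lgr5 promoter. The pooled tissue was dissociated with trypsin and its cells were sorted by flow cytometry into 1 population with high GFP (GFPhigh) and 1 with low GFP (GFPlow). Both populations carry the same allele. Treatment and age of the mice are not given in the sources used here. GFPhigh RNA was labelled with Cy3 and GFPlow RNA with Cy5 on array 1, and the dyes were exchanged on array 2. Both arrays measure the same pair of pooled RNA samples, so they are 1 replicate. The populations could not be tested against each other, and the SD given below is the technical spread of 2 arrays.

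Of the 8 simple epithelium genes set as a check of the tissue, 7 were well above background in GFPhigh on both arrays and likewise 7 in GFPlow, with the cadherin gene Cdh1 at a log2 ratio of GFPhigh over GFPlow of -0.16 ± 0.11 and the keratin genes Krt18, Krt8 and Krt19 at 0.08 ± 0.69, -1.19 ± 0.98 and -2.24 ± 0.04. "Well above background" is a flag that the scanner software sets for a spot in 1 channel, and "detected" and "measured" below refer to it. A weaker flag of the same software marks a signal that is positive and significant, so a spot without the first flag can still hold signal. On array 1, 28.2% of all gene probes were well above background in GFPhigh and 24.6% in GFPlow. On array 2 the shares were 18.2% in GFPhigh and 31.2% in GFPlow. The 4 channels differ in dye, with a median local background of 57 and 134 scanner units in GFPhigh on arrays 1 and 2, and of 134.5 and 56 units in GFPlow, Cy5 being the higher dye on both arrays.

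The sequences of 6 probes are shown because the measured genes and the disagreements between probes rest on them. All positions are on mouse build mm9 as the array files give them. No gene annotation of that build was used, so exons are not named, except that a probe whose coordinates span more than its 60 bases crosses a junction between exons. The single Avil probe, A_51_P166339, is such a probe. It starts at base 2279 of transcript NM_009635, covers chr10:126453541-126454065 on the plus strand, and is shown whole.
Avil A_51_P166339: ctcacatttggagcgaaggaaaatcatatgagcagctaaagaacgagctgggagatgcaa
A pair of Alox5 probes, A_52_P214126 (chr6:116360366-116360425) and A_51_P247249 (chr6:116360326-116360385, both minus strand), overlap by 20 bases. The last 30 bases of the first and the first 30 of the other are shown, with the shared stretch in capitals. Their 2 readings are therefore not separate evidence on Alox5.
Alox5 A_52_P214126: ctttattctaTTTATGCTTCCTCCAATTGC
Alox5 A_51_P247249: TTTATGCTTCCTCCAATTGCttgcatagag
For Dclk1, the brightest probe, A_51_P193036 (chr3:55342815-55342874, plus strand), lies at base 7675 of transcript NM_019978, and its first 30 bases are shown. The 2 junction probes of the gene lie farther towards the start of the transcript, A_52_P217807 at base 1031 (chr3:55184765-55254910) and A_52_P21628 at base 2338 (chr3:55320895-55337537), and are shown whole.
Dclk1 A_51_P193036: tttcccccctaatccttcagtttaagctca
Dclk1 A_52_P217807: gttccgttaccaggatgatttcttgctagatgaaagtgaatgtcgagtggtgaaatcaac
Dclk1 A_52_P21628: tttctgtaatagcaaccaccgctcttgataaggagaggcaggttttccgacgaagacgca

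More of the tuft cell genes were well above background in GFPlow than in GFPhigh, on both arrays. In GFPhigh, 2 of the 9 genes had a probe well above background on array 1 (Alox5ap and Plcg2) and 1 on array 2 (Plcg2). In GFPlow it was 4 genes on array 1 (Avil, Alox5, Alox5ap and Plcg2) and 7 on array 2, where Dclk1, Trpm5 and Rgs13 were added. Among all 27777 genes the shares were 33.4% and 23.1% in GFPhigh on arrays 1 and 2, and 29.8% and 36.2% in GFPlow. Ptgs1 and Gfi1b were well above background in no channel. By the weaker flag the populations were close on array 1, with 10 of the 17 probes in GFPhigh and 11 in GFPlow, against 49.1% and 44.4% of all probes. On array 2 it was 5 probes in GFPhigh and 14 in GFPlow, against 36.5% and 49.8% of all probes. No value here tells fewer tuft cells in a population from less of these transcripts per tuft cell.

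Of the 17 probes, 3 (the Avil probe and the overlapping pair of Alox5) were well above background on both arrays in GFPlow and on neither in GFPhigh, a pattern that 0.828% of all gene probes showed. The opposite pattern was shown by 0 of the 17 probes and by 12 of all 41059. Another 3 probes, 1 each of Dclk1, Trpm5 and Rgs13, passed in GFPlow on array 2 and in no other channel, which 3.49% of all probes did. Array 2 is the array on which GFPlow was in Cy3, the dye with the lower background, and the part of the dye in these array 2 detections was not tested.

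**Figure D1:**
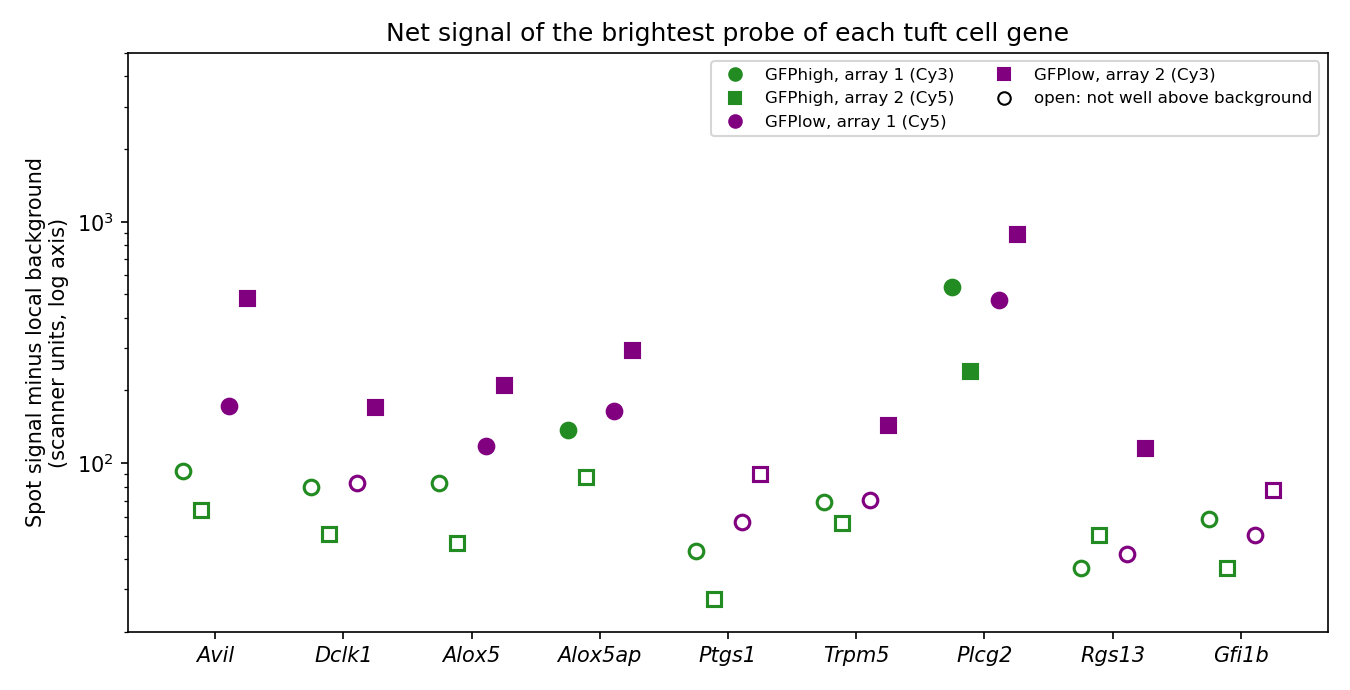
Spot signal minus local background (scanner units, log axis) of the brightest probe of each of the 9 genes, with GFPhigh in green left of GFPlow in purple, circles for array 1 and squares for array 2, and open symbols where the spot was not well above background. GFPlow on array 2 holds the highest point of every gene, and only Plcg2 has 4 filled points. Signals of different probes are not comparable with each other.

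Every gene's brightest probe had a ratio below 0 on both arrays, that is 9 of 9, against 24.6% of all genes whose brightest probe was taken in the same way. For most of the 9 genes the ratio was small. The median of the 9 mean log2 ratios was -0.41, with a range of -1.09 to -0.14, against a median of 0.0074 over the 27777 genes. Over all 17 probes, 13 were below 0 on both arrays, against 24.8% of all probes. Of the 17, 7 are probes of Dclk1 and 3 of Alox5, so they are not separate genes. The offset of 50 units added in background correction pulls the ratios of dim spots towards 0, so the ratios of dim genes understate the difference in signal. For a gene well above background in neither population no fold is given.

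A call of higher in GFPhigh or in GFPlow required a ratio of at least 2-fold, a log2 ratio of 1, in the same direction on both arrays. It was read from the brightest probe of the gene among those whose brighter population had the background flag on both arrays, which left 7824 genes and 4 of the 9 tuft cell genes. Of these 4, Avil was counted as higher in GFPlow and 0 genes as higher in GFPhigh. Among all 7824 genes, 1.76% were counted as higher in GFPhigh (138 genes) and 2.70% as higher in GFPlow (211 genes). That split was 10 against 215 genes when each array was centred on its median instead of by loess, and 21 against 1640 when it was centred on spike-in RNA. A gene not well above background on both arrays in GFPhigh could be kept only with a mean ratio below 0. The count of kept genes below 0 and the 0 genes higher in GFPhigh therefore support nothing for Avil, Alox5 and Alox5ap.

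Avil encodes advillin, an actin-binding protein of the villin and gelsolin family that is found in the microvillus bundle of tuft cells. Its net signal, which is spot brightness minus local background, was 92.4 and 64.1 units in GFPhigh on arrays 1 and 2, against 173 and 484 units in GFPlow. Within each dye the higher value belonged to GFPlow, as it did for 76.1% of all genes in Cy3 and 61.4% in Cy5. The spread between the pixels of a spot was 23.0 and 22.7 units (SD) in GFPhigh, against 58.0 and 72.0 units in GFPlow. For arrays 1 and 2 the log2 ratio of GFPhigh over GFPlow was -1.04 and -1.14, a mean of -1.09 ± 0.07. Among the 7824 genes, 258 (3.30%) had a lower ratio. GFPhigh passed the weaker flag on both arrays but was well above background on neither, so the difference is given as a bound. A bound sets the GFPlow level against the higher of the probe's own GFPhigh level and the lowest level found well above background in the channel. For Avil its own level was the higher, so the 2.13-fold obtained is the measured ratio itself and depends on the processing. Without background correction the mean log2 ratio was -0.73. With the 5th percentile of those levels in place of the lowest, the bound was at least 1.78-fold higher in GFPlow.

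Dclk1 encodes doublecortin-like kinase 1, a microtubule-associated kinase used as a histological marker of tuft cells in the mouse gut. Its brightest probe had net signals of 80.0 and 50.9 units in GFPhigh, against 83.0 and 171 units in GFPlow. Only the GFPlow spot on array 2 was well above background, and the GFPlow value on array 1 was close to the GFPhigh value on the same array, which was in the other dye. Within each dye the GFPlow value was the higher, as for most genes in each dye. The log2 ratios of this probe were -0.30 and -0.54. The remaining 6 probes were well above background in no channel, and 3 of them, A_52_P563818, A_51_P270355 and A_52_P217807, were significant by the weaker flag in 3, 2 and 2 channels. The probes at bases 5123 and 5316 of NM_019978 were below 0 on both arrays, with means of -0.26 ± 0.13 and -0.50 ± 0.25. The junction probes at bases 1031 and 2338 had means of -0.10 ± 0.02 and -0.03 ± 0.23. A_52_P26991, assigned to the transcript variant NM_001111053, and A_52_P1164065, assigned to the cDNA AK046743, had means of -0.01 ± 0.14 and 0.01 ± 0.09, with opposite signs on the 2 arrays. The 3 lowest mean ratios thus belong to the 3 probes nearest the end of the transcript, of which A_51_P193036 alone was detected in a channel.

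**Figure D2:**
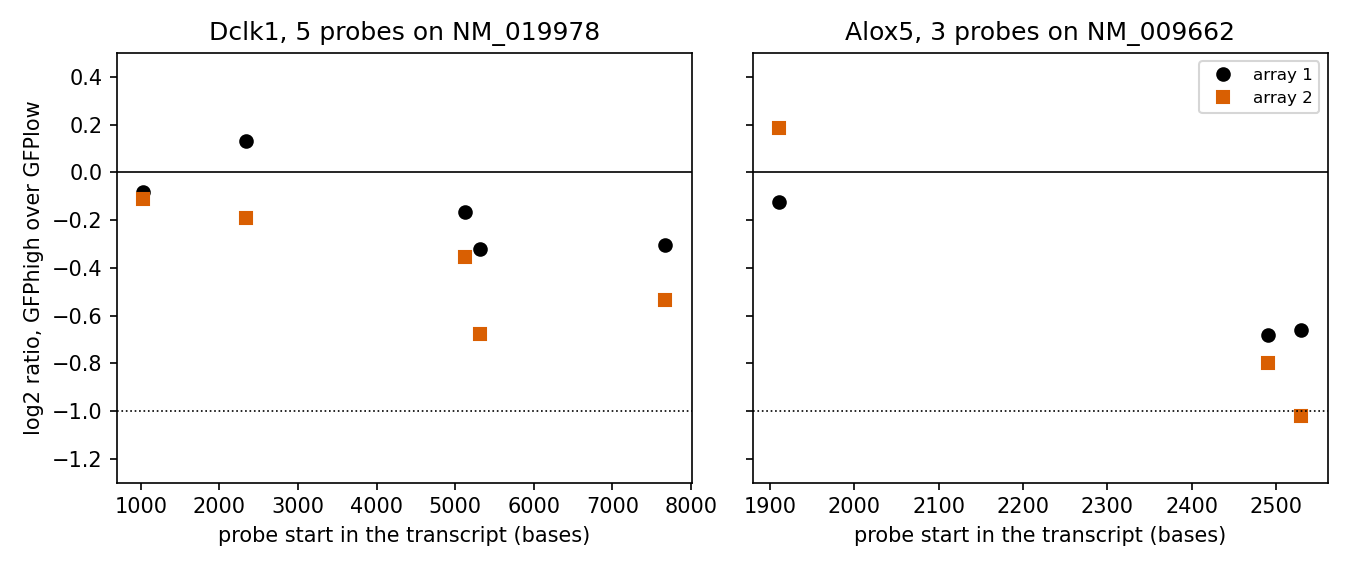
Log2 ratio of GFPhigh over GFPlow on each array against the start of the probe in the transcript (bases) for the 5 Dclk1 probes on NM_019978 and the 3 Alox5 probes on NM_009662. In both genes the lowest ratios belong to probes near the end of the transcript.

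Alox5, Alox5ap and Ptgs1 are genes of eicosanoid synthesis. Alox5 encodes the lipoxygenase that starts leukotriene synthesis, Alox5ap the membrane protein that hands arachidonic acid to it, and Ptgs1 the constitutive cyclooxygenase that starts prostaglandin synthesis. With the brightest probe, all 3 ratios were below 0 on both arrays and none reached 2-fold on both.

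The brightest Alox5 probe, A_52_P214126, had net signals of 82.7 and 46.5 units in GFPhigh, against 118 and 210 units in GFPlow. Within each dye the GFPlow value was the higher, as for most genes in each dye. The arrays gave log2 ratios of -0.68 and -0.80, a mean of -0.74 ± 0.08, with 630 of the 7824 genes (8.05%) lower. GFPhigh had the weaker flag on both arrays and the stronger on neither, which leaves a bound of at least 1.66-fold higher in GFPlow, or 1.12-fold with the 5th percentile as the floor. The overlapping probe read -0.66 on array 1 and -1.02 on array 2, with a bound of at least 1.56-fold, or 1.04-fold with the other floor. The third probe, A_52_P214134 at base 1911, lies nearer the start of the transcript and differed from this pair. It was well above background in no channel, with net signals of 45.7 and 57.1 units in GFPhigh against 40.1 and 70.7 units in GFPlow, and its ratios were -0.12 and 0.19.

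Alox5ap (NM_009663, probe at chr5:150099347-150099406, plus strand) was measured in both populations, but in GFPhigh on array 1 only. Its net signals were 137 and 87.2 units in GFPhigh, against 165 and 296 units in GFPlow. GFPlow was the higher within each dye, as for most genes in each dye. The 2 log2 ratios were -0.54 and -0.27, with a mean of -0.41 ± 0.19, or 1.33-fold higher in GFPlow. Among all kept genes 20.6% had a lower ratio.

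Ptgs1 (NM_008969, chr2:36105892-36105951, plus strand) was well above background in no channel, and significant by the weaker flag in GFPlow alone, on both arrays. Its net signals were 43.4 and 27.3 units in GFPhigh and 57.0 and 89.8 units in GFPlow. GFPlow was again the higher within each dye, as for most genes in each dye. The log2 ratios were -0.46 and -0.74, and no fold is given for them.

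Trpm5 and Plcg2 act in calcium signalling. Trpm5 (NM_020277, chr7:150257715-150257774, minus strand) encodes the calcium-activated cation channel of the taste-type cascade. It was well above background in GFPlow on array 2 alone, but significant by the weaker flag in all 4 channels, with net signals of 69.1 and 56.4 units in GFPhigh, against 70.6 and 144 units in GFPlow. The log2 ratios of -0.27 and -0.29 were nearly equal, while in net signal GFPlow on array 1 was close to GFPhigh on array 1, which was in the other dye. Within each dye the GFPlow value of Trpm5 was the higher, as for most genes in each dye.

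Plcg2 (NM_172285, chr8:120158980-120159037, plus strand) encodes a phospholipase C that acts downstream of tyrosine kinases, in leukocytes as well as in tuft cells. It was the only one of the 9 genes well above background in all 4 channels, and its populations were close. Net signals were 538 and 240 units in GFPhigh, against 474 and 891 units in GFPlow, so that the ranges overlap before the dyes are adjusted for. The log2 ratios were -0.21 and -0.07, a mean of -0.14 ± 0.10, and 41.5% of kept genes had a lower ratio. The median of all kept genes was -0.06, and the Plcg2 ratio differed from it by less than the SD of its 2 arrays.

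Rgs13 (NM_153171, chr1:145986491-145986550, minus strand) encodes a regulator that shortens G protein signals, and Gfi1b (NM_008114, chr2:28464982-28465041, minus strand) a zinc finger repressor known from blood cell precursors and from tuft cells. Rgs13 was well above background in GFPlow on array 2 alone, and by the weaker flag it was significant in that channel only, with net signals of 36.8 and 50.4 units in GFPhigh, against 42.1 and 115 units in GFPlow. In Cy5 the GFPlow signal of Rgs13 was below the GFPhigh signal, which holds for no other brightest probe of the 9 genes. In Cy3 the GFPlow signal was the higher for all 9 and in Cy5 for 8, but so it was for 76.1% and 61.4% of all genes. The log2 ratios of Rgs13 were -0.35 and -0.29. Gfi1b was well above background in no channel and significant by the weaker flag in 3, with net signals of 59.0 and 36.7 units in GFPhigh, against 50.6 and 77.3 units in GFPlow, and ratios of -0.08 and -0.36.

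**Figure D3:**
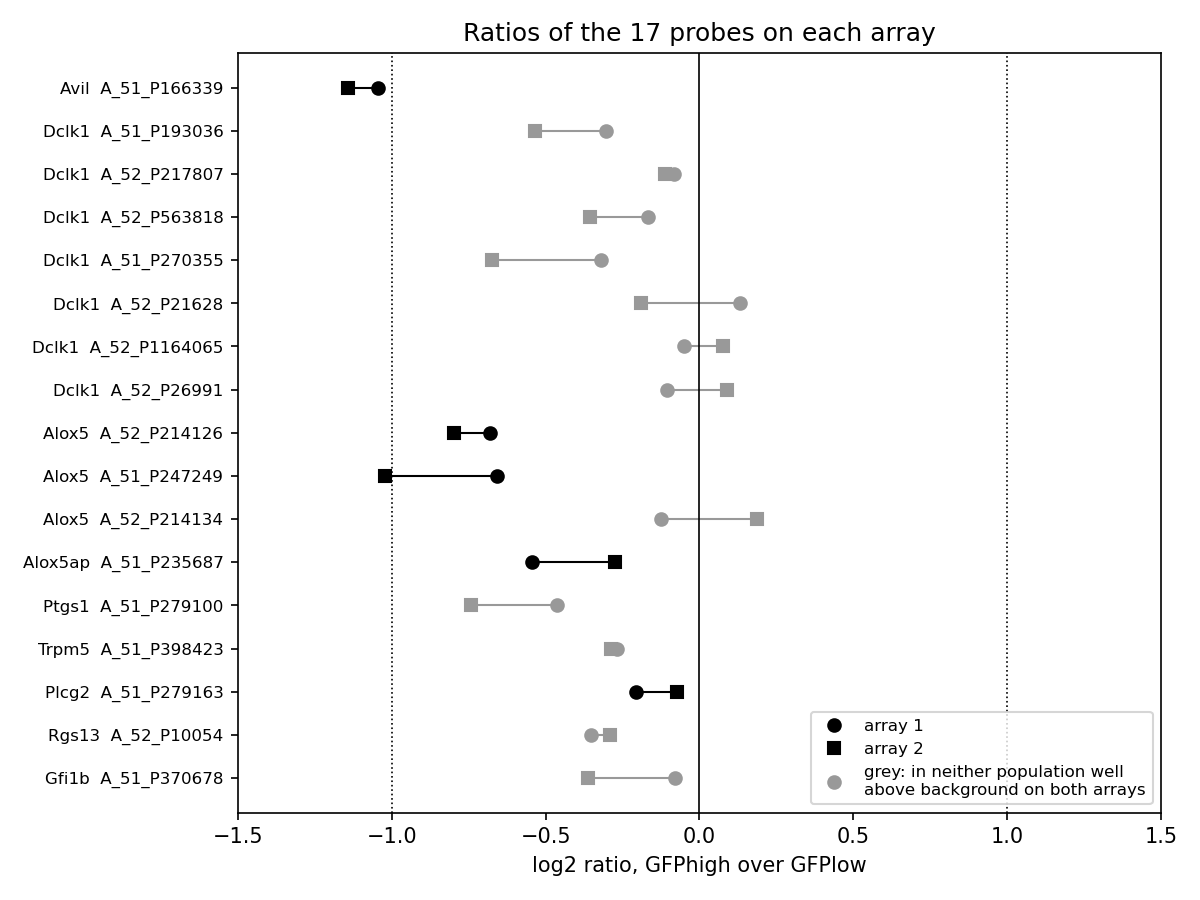
Log2 ratio of GFPhigh over GFPlow for the 17 probes, circles for array 1 and squares for array 2, joined by a line. Dotted lines mark 2-fold, and grey probes were in neither population well above background on both arrays. Avil alone lies beyond the dotted line on both arrays, and 9 probes were well above background in no channel, of which 5 were below 0 on both arrays and 4 had opposite signs.

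Of those 9 undetected probes, 5 were below 0 on both arrays, against 20.9% of all probes without a detected channel, and 0 were above 0 on both. Most of the 9 are Dclk1 probes and the rest are of Alox5, Ptgs1 and Gfi1b, so they are not separate genes. Such spots carry little signal, and no direction is drawn from a single one of them.

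The processed signals of the scanner software, which use another background correction without an added offset, gave a larger mean ratio in size for 7 of the 9 genes and a smaller one for Plcg2 and Gfi1b. The scanner's log2 ratio of GFPhigh over GFPlow for Avil was -2.34 on array 1 and -2.31 on array 2, with errors of 0.39 and 0.44 from the software's model of a single array. For the brightest Alox5 probe it was -1.84 and -2.21, with errors of 0.48 and 0.68. For the brightest Dclk1 probe it was -1.12 and -1.63, with errors of 0.58 and 0.84, so that Dclk1 passed 2-fold on both arrays without being well above background on both. For Alox5ap it was -1.21 and -0.07, a difference between the arrays above both errors of 0.30 and 0.37. Plcg2 was at 0.02 and -0.18, with errors of 0.21 and 0.22. Recomputed from the processed signals, the ratios of Gfi1b were -0.45 and 0.14, opposite in sign, and those of Rgs13 were -0.07 and -1.73. The scanner's errors were 1.72 and 1.70 for Gfi1b and 2.04 and 0.90 for Rgs13. Only the Rgs13 ratio on array 2 exceeded its error in size, so no direction is drawn from the others.

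**Figure D4:**
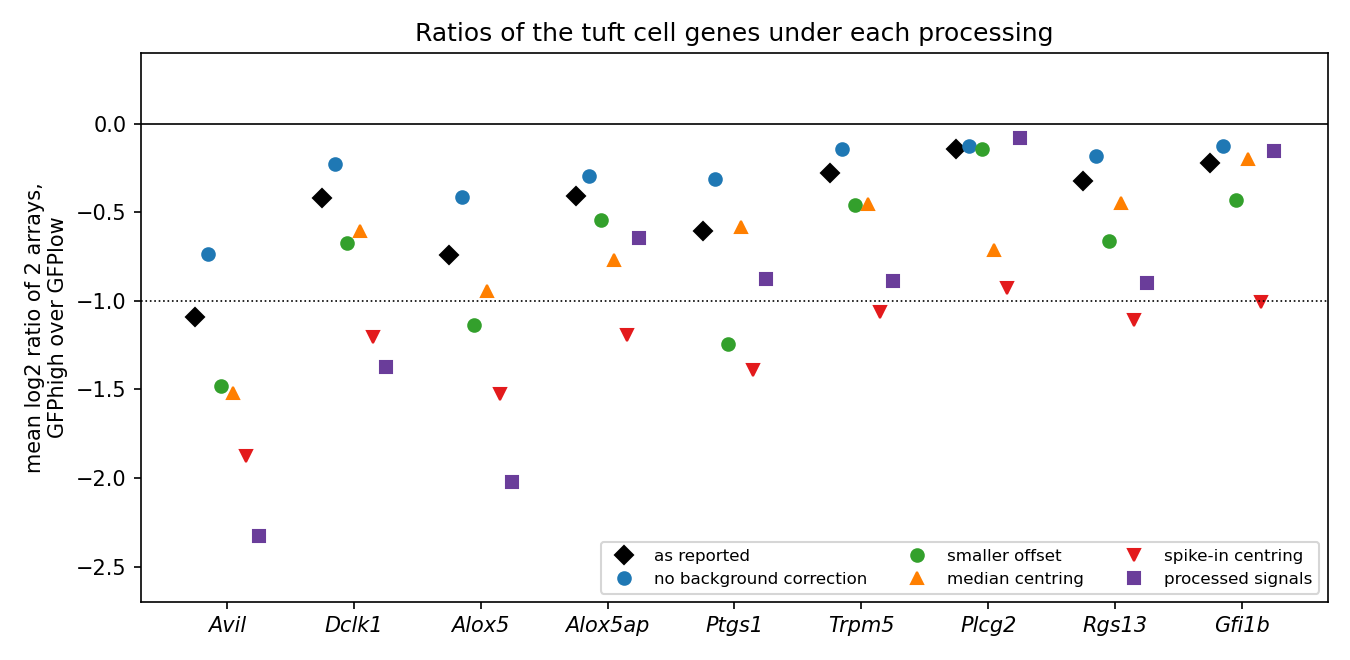
Mean log2 ratio of 2 arrays, GFPhigh over GFPlow, for the brightest probe of each gene under 6 ways of processing. All points lie below 0, and the Avil points run from -2.33 with processed signals to -0.73 without background correction. The dotted line marks 2-fold.

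A wider set of 54 genes, fixed by roles known in tuft cells, was read beside the 9 genes. Not all of the 54 are markers of tuft cells. Of the 54 genes, 52 were on the array, 13 were detected in GFPhigh on both arrays and 18 in GFPlow, against 22.9% and 29.4% of all genes, and those 13 were all among the 18. Of the 18 measured genes, 3 were counted as higher in GFPhigh (Itpr2, Sox9 and Cd24a) and 0 as higher in GFPlow, against 1.76% and 2.70% of all kept genes. Under median centring and spike-in centring the mean ratios of these 3 stayed above 0, but none reached 2-fold on both arrays, and under median centring each was below 0 on array 2. The 0 genes higher in GFPlow also depended on the processing, since Gng13 passed 2-fold on both arrays with processed signals. Several of the 54 genes are expressed in other epithelial cells as well, Sox9 and Cd24a among them.

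In the taste-type cascade, 3 of 10 genes on the array were measured. Gng13, a G protein subunit of taste and tuft cells, was well above background in GFPlow alone. Its log2 ratios were -1.06 and -0.92, a bound of at least 1.88-fold higher in GFPlow, and it missed 2-fold on array 2 only. With processed signals the ratios of Gng13 were -2.54 and -2.76, and without background correction they were -0.69 and -0.59. The calcium channel gene Itpr2 was higher in GFPhigh, at 1.76 and 1.34, and Itpr3, the form used by taste cells, was at 0.69 and -0.14, with signs that differ between the arrays. The median of the 10 genes, without a filter, was -0.07. The receptor genes Tas1r1, Tas1r2, Tas1r3 and Sucnr1 and the cascade genes Plcb2 and Gnb3 were among the 7 not measured on both arrays in either population.

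In eicosanoid synthesis, 5 of 12 genes were measured and 0 passed 2-fold on both arrays. Ltc4s, the leukotriene C synthase, was at -0.33 and -0.38. Alox12 was at -0.18 and -0.43, and Lta4h, the leukotriene A hydrolase, was at -0.00029 and -0.86. All 3 were well above background in GFPhigh on array 1 only, so they could be kept only with a mean ratio below 0. The phospholipase gene Pla2g4a was at 0.31 and -0.45, and the prostaglandin-degrading enzyme gene Hpgd at 0.20 and 1.11. Hpgds, Ptgs2 and Ptges were among the 7 not measured.

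Of 8 transcription factor genes, Sox9 was higher in GFPhigh, at 1.40 and 1.31, and Ascl2 was at 0.12 and 0.87. Pou2f3, the factor on which tuft cells depend, was well above background in GFPhigh on array 1 and in no other channel, with ratios of -0.06 and 0.07. Spib was well above background in GFPlow on array 2 alone, at -0.34 and -0.16.

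Of 22 genes of signalling and structure, 8 were measured. Cd24a, a surface glycoprotein, was higher in GFPhigh at 1.09 and 2.05. Rgs2 was at -1.27 and -0.74, Cbr3 at -1.35 and 0.05, and Vil1, which encodes the microvillus protein villin, at 0.74 and -0.48. Sh2d6, an adaptor gene of tuft cells, was well above background in GFPlow alone, at -0.28 and -0.03. Il4ra was at 0.55 and 0.08, Ptpn6 at 0.07 and 0.44 and Krt18 at -0.40 and 0.57. The means of Itpr3, Hpgd, Il4ra, Ptpn6, Krt18 and Vil1 turned below 0 under median centring and spike-in centring, and that of Ascl2 under spike-in centring. The cytokine gene Il25 and its receptor gene Il17rb were not measured.

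**Figure D5:**
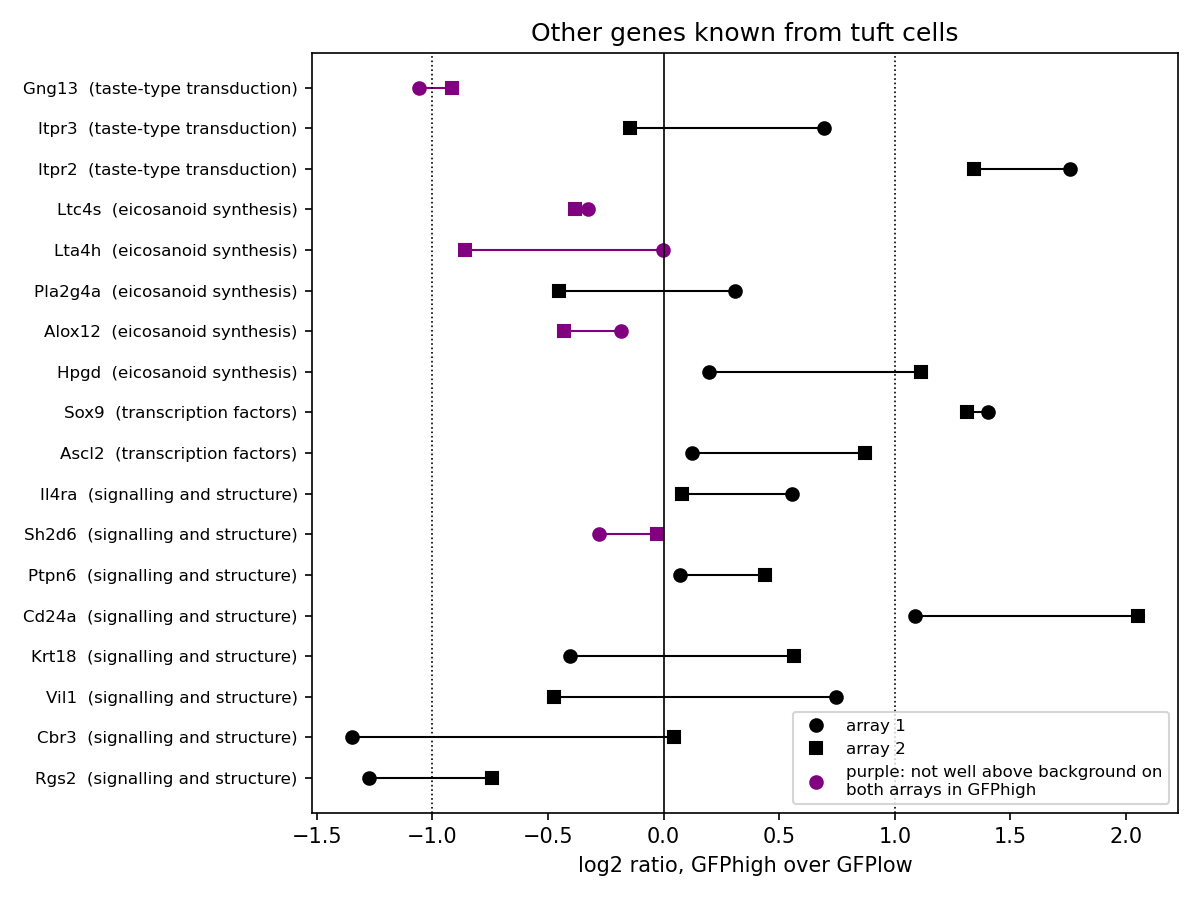
Log2 ratio of GFPhigh over GFPlow on array 1 (circles) and array 2 (squares) for the 18 measured genes of the wider set, with dotted lines at 2-fold. Genes in purple were not well above background on both arrays in GFPhigh. Itpr2, Sox9 and Cd24a lie beyond the line towards GFPhigh on both arrays, and no gene lies beyond it towards GFPlow on both.

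Several of the 9 genes are also expressed by leukocytes, blood cell precursors, endocrine cells or nerve cells, and markers of those cells were measured beside them. Of 10 mast cell, 8 B cell, 7 T cell and 11 megakaryocyte, platelet and erythroid markers on the array, 0 were well above background on both arrays in either population. Among 10 pan-leukocyte and myeloid markers, Cd14 was measured in both populations (-0.33 and -0.28) and Fcer1g in GFPlow on both arrays (-0.36 and 0.13), while Ptprc and Csf1r were not measured. Of 8 nerve and glia markers, S100b (0.33 and 0.04), Tubb3 (-0.37 and 0.03) and Uchl1 (-0.41 and -0.35) were measured, and 0 passed 2-fold.

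Of 12 endocrine cell markers on the array, 5 were detected in GFPhigh on both arrays and 7 in GFPlow. Of the 7 kept genes, 0 were counted as higher in GFPhigh and 5 as higher in GFPlow, against 1.76% and 2.70% of all kept genes. Gast and Neurog3 were kept without passing, and 5 of the 12 were detected in neither population. Tph1, among the genes counted as higher in GFPlow, and Neurog3 were well above background in GFPlow alone. They could therefore be kept only with a mean ratio below 0. The ratios were -3.32 and -2.32 for Ghrl, -3.26 and -2.54 for Chgb, -1.35 and -1.56 for Chga and -0.49 and -1.25 for Gast. Of 9 pyloric gland and pit cell genes, 8 were kept. Of these, 2 were counted as higher in GFPhigh and 4 in GFPlow, against the same 1.76% and 2.70% of all kept genes. Gkn1, counted as higher in GFPlow, was well above background in GFPlow alone and could be kept only with a mean ratio below 0. Tff2 was not counted, at 0.95 and 2.68. The ratios were -4.00 and -2.41 for Tff1, 2.73 and 3.71 for Pgc and -3.63 and -2.85 for Gkn2. The part of either group in the tuft cell ratios was not tested.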

How the data were processed

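The authors deposited the scanner output of 2 two-colour Agilent arrays, which share 1 slide and 1 scan. Per the labels' protocols, 150 ng of total RNA was labelled after linear amplification. Per the file headers, the files hold mean intensity and local background intensity per spot, processed intensity, the log10 ratio of Cy5 over Cy3 with its error, and p-values, which were not used. The headers name Feature Extraction 10.5.1.1 and the submitters' processing notes 9.5.3. The deposited value table holds these log10 ratios with GFPhigh on top, column medians of 0.0188 and -0.0458, and is empty at 22558 and 24241 of 45018 spots.

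Mean signals were background-corrected (limma 3.58.1 in R 4.3.3, normexp, offset 50) and normalized by loess array by array (control spots had weight 0). Outlier spots were dropped, 0 gene spots were saturated, and ratios were turned by the dyes in the labels. Bounds use channel levels after Aquantile normalization. A gene was represented by its probe with the highest mean level. The steps were tested on simulated arrays. Members of the wider lists were matched by accession or current symbol (RefSeq, GRCm38.p6, names only).

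The 9 genes, the lists and the alternatives were chosen with earlier results of these data known. All 9 genes, every measured gene of the wider tuft set, and up to 4 of the brightest measured genes of each other list were to be named, and genes named as not measured on both arrays were chosen after their values were seen. Alternatives covered background correction, signals, centring, filter, detection flag, probe rule, naming, fold and each array alone. The number of arrays limits the precision.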

Additional observations from a re-analysis of the deposited data

How the results depend on the processing

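The mean ratio of the brightest probe of each of the 9 genes stayed below 0 in every alternative that gave a value, 9 to 12 per gene. Not all of these were separate checks. Naming by accession and keeping outlier spots returned the same values, and each array alone repeated the array ratios given above. The value table nearly repeated the processed signals, and spike-in centring could only lower a ratio. The mean ratio ran from -2.33 to -0.73 for Avil, from -2.02 to -0.41 for Alox5, from -1.19 to -0.27 for Alox5ap, from -1.38 to -0.23 for Dclk1, from -1.39 to -0.31 for Ptgs1, from -1.06 to -0.14 for Trpm5, from -1.11 to -0.18 for Rgs13, from -0.92 to -0.07 for Plcg2 and from -1.01 to -0.08 for Gfi1b. The number of the 9 genes counted as higher in GFPhigh was 0 in every alternative. With the background flag on both arrays as the filter, Plcg2 alone could have been counted so. Without a filter on dim probes all 9 genes were kept, and the number was again 0. The number counted as higher in GFPlow, 1 as reported, was 0 without background correction, 0 under median centring, where Avil was at -0.89 on array 1, and 0 over genes well above background in both populations, where Plcg2 alone was left. It was 2 (Avil and Alox5) with processed signals, with the value table and at 1.5-fold, and 3 with spike-in centring, which lowers every ratio by 0.785 and adds Alox5ap. Without array 1 and without array 2 it was 1 and 1. Over all genes, counts higher in GFPhigh and in GFPlow were 352 and 511 with processed signals, 352 and 507 in the value table, 125 and 139 over genes well above background in both populations, 438 and 588 at 1.5-fold, 350 and 400 on array 1 alone and 370 and 499 on array 2 alone. Median centring and spike-in centring moved the median of all genes to -0.49 and -0.81. Dim signal limits the values, since 5 of the 9 genes were in neither population well above background on both arrays, and so do the choice of centring and the single pooled RNA sample per population.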
